A study of Gallus gallus with 12 samples.

Results

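The SR, hnRNP and RBM splicing regulators are RNA-binding proteins that choose exons and splice sites, taken here with the CLK kinases that phosphorylate them. Members were the rows of the count table named SRSF, HNRNP or RBM with a family number or letter, CLK1 to CLK4, TRA2A, TRA2B, RSRP1 or LUC7L3. This gave 65 of 30742 rows and 64 symbols, because SRSF7L names 2 neighbouring rows of chromosome 3. By family there were 11 SRSF, 16 HNRNP, 30 RBM and 4 CLK rows and 4 others. The rule used names and no measured value, but the set was proposed with earlier results of these data known.

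The libraries came from White leghorn chicken embryos at embryonic day 18, with RNA-seq of tissue labelled hypothalamus or whole brain. Heat-exposed eggs, under embryonic thermal manipulation (ETM), were kept at 39.5 °C from day 13 to day 18 and otherwise like the controls (CT), which stayed at 37.8 °C throughout. The 4 groups, ETM hypothalamus, CT hypothalamus, ETM whole brain and CT whole brain, held 3 libraries each with 1 shared batch label, and all groups share line, age and kit. Humidity is given as 65% in one place and 60% in another, and nothing in the labels tells if a library is 1 embryo or a pool. The p-values therefore cover only the spread among libraries, part of which may be technical. In 3 of the 4 groups 1 library had W-linked counts, given below, that the others nearly lacked. The libraries of those groups were therefore not all repeats of 1 sample.

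As background, SR proteins carry an RNA recognition motif and a tail of arginine and serine repeats, bind exonic enhancers and recruit the spliceosome. Many hnRNP proteins act against them by binding silencers and looping or covering exons, and they also package, transport and stabilise mRNA. CLK kinases phosphorylate the SR tail and release SR proteins from nuclear speckles, and their activity in mammals and reptiles falls as temperature rises. RBM3 is best known in mammals as a protein whose mRNA rises in the cold.

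The libraries held 13309467 to 18317019 counts each. Levels below are library-size normalised counts after TMM scaling (CPM), in the order of library 1, 2 and 3 of each group. NKX2-1, a defining gene of the ventral hypothalamus, stood at 0, 1.24 and 0 CPM in ETM and 0, 0 and 0.138 CPM in CT libraries labelled hypothalamus, against 4.89 to 5.49 CPM in ETM and 4.86 to 6.53 CPM in CT whole brain. Not all markers of the hypothalamus were lower. OTP had 11.6, 6.41 and 7.29 CPM in ETM libraries labelled hypothalamus, against 2.14 to 3.57 CPM in ETM whole brain. In CT it had 43.1, 6.20 and 20.6 CPM, against 5.32 to 6.10 CPM. Of 6 such markers, 2 were higher and 3 lower in hypothalamus-labelled libraries by the edgeR test below, in CT and in ETM alike. The markers thus went both ways, and the label is used here only as a label. ETM hypothalamus library 2, CT hypothalamus library 3 and ETM whole brain library 1 took 0.113% to 0.147% of their counts from W-linked genes, present in female birds, against 0.0105% to 0.0174% in the other 9. In ETM hypothalamus library 1 the deposited FPKM values do not follow from the deposited counts, so that results were also computed with reads recovered from its FPKM column.

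Together the members took 7603 to 7747 CPM in ETM whole brain, against 6289 to 6365 CPM in CT whole brain. In hypothalamus-labelled libraries the sum was 5838 to 6405 CPM in ETM and 5478 to 6130 CPM in CT. The whole brain groups did not overlap and the hypothalamus groups did. Levels between genes are given as RPKM, CPM per kilobase of the deposited gene length. HNRNPA2B1, which binds and transports mRNA, had the highest mean over all libraries, 180.0 RPKM. It stood at 273 ± 15 RPKM in ETM whole brain, against 182 ± 3.1 RPKM in CT whole brain, and 132 ± 3.9 RPKM in ETM against 133 ± 12 RPKM in CT hypothalamus (SD, n = 3 each). HNRNPH1, a binder of G runs, followed at 124 to 173 RPKM over the group means. Next came RBM10, which controls exon inclusion, at 104 to 154, and then RBM3, whose group means ran from 86.3 to 151 RPKM. RefSeq gives RBM5 as a synonym of the RBM10 locus and HNRNPH2 as one of the HNRNPH1 locus. Which gene these rows count is therefore uncertain. SRSF2, a defining protein of nuclear speckles, led the SR family by its mean RPKM over all libraries, with group means of 66.6 to 115 RPKM. That rank rests on a deposited length of 838 bases. The SRSF2 row ends at 4867923, where RefSeq ends the locus at 4871067. By CPM SRSF2 averaged 82.3, below SRSF6 at 215. The order changed with group. RBM3 and RBM10 lay within their SD of each other in ETM hypothalamus (151 ± 24 against 154 ± 5.7 RPKM) and apart in CT whole brain (86.3 ± 1.5 against 105 ± 5.8). The CLK genes were lower, with means over all libraries from 9.84 RPKM for CLK3 to 14.9 RPKM for CLK4 and CLK1, and RBM46 had at most 0.141 RPKM in any library.

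**Figure D1:**
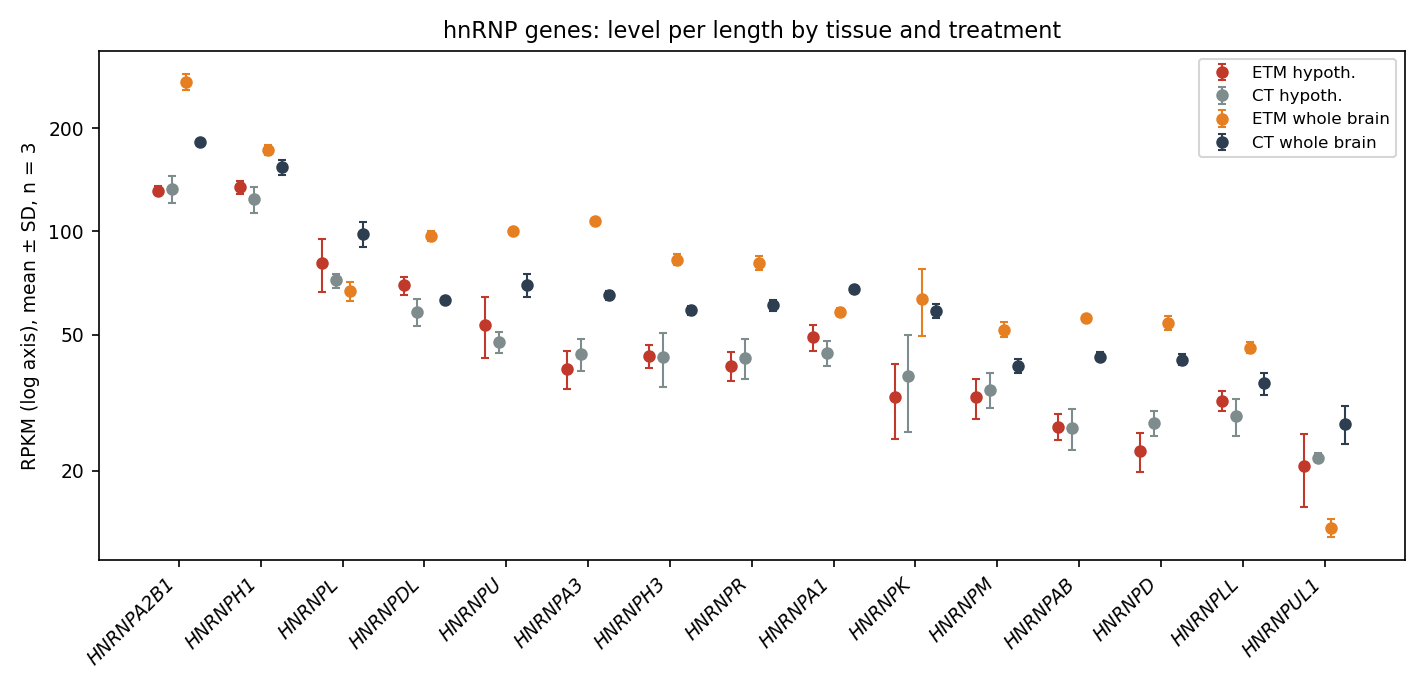
Level per length (RPKM, logarithmic axis) of 15 hnRNP genes in the 4 groups, as mean and SD of 3 libraries. HNRNPA2B1 reached 273 RPKM in ETM whole brain, against 182 RPKM in CT whole brain, while HNRNPL and HNRNPUL1 were lower in ETM than in CT whole brain.

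Heat exposure in whole brain was tested with the edgeR quasi-likelihood test, and a gene was called at a Benjamini-Hochberg adjusted p below 0.05. Of the 63 members with enough counts, 27 rose and 10 fell with heat, which is 58.7%, and 44.3% of all 15305 genes were called. The members varied less among libraries, with a median coefficient of variation of 5.64% in ETM and 5.20% in CT. Over all genes it was 10.20% in ETM and 10.99% in CT. The part of this smaller spread in the members' called share was not tested. The median log2 fold change was 0.13 over the members and 0.01 over all genes. Of 15 hnRNP genes 10 rose and 3 fell, of 29 RBM genes 9 rose and 3 fell, and of 11 SRSF rows 4 rose and 3 fell. Library groups did not overlap for 31 members on the higher and 14 on the lower side, where 56.5% of all genes had no overlap (30.5% higher and 26% lower). Of all genes, 21.1% rose and 23.2% fell.

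Among SR genes, SRSF2 (ENSGALG00010029370, chromosome 18, 4866605 to 4867923, build GRCg7b) fell. Its level was 55.1, 54.4 and 57.9 CPM in ETM whole brain, against 84.4, 86.3 and 82.8 CPM in CT. Every ETM library lay below every CT library, and the log2 fold change was −0.64 ± 0.08 (SE; edgeR adjusted p = 0.000188). SRSF4, a longer SR protein (ENSGALG00010016299, chromosome 23, 3099133 to 3110125, build GRCg7b), went the other way. It measured 151, 139.8 and 134 CPM in ETM, against 96.3, 93.1 and 83.3 CPM in CT, a log2 fold change of 0.59 ± 0.09 (edgeR adjusted p = 0.000428). All ETM values of SRSF4 were above all CT values. SRSF6 had 233, 244 and 241 CPM in ETM, against 187, 179 and 189 CPM in CT (0.33 ± 0.07, edgeR adjusted p = 0.00353). SRSF11, which promotes neuronal microexons in mammals, had 107, 104 and 127 CPM in ETM, against 84.2, 74.1 and 81.0 CPM in CT (0.46 ± 0.10, edgeR adjusted p = 0.00384). Neither pair of groups overlapped.

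The calls of 3 other SRSF rows did not hold in every alternative. SRSF3, the smallest SR protein and an mRNA export adaptor, had 200.5, 182 and 179.6 CPM in ETM, against 159, 156 and 147 CPM in CT (0.24 ± 0.08, edgeR adjusted p = 0.0288). Without ETM library 1 its edgeR adjusted p was 0.114 and without CT library 3 it was 0.131. SRSF10, a splicing repressor in heat-shocked mammalian cells, had 3.97, 4.43 and 4.23 CPM in ETM, against 5.90, 5.86 and 6.02 CPM in CT (−0.54 ± 0.18, edgeR adjusted p = 0.0298), and it passed in none of the fits that left out a library, with edgeR adjusted p from 0.0542 to 0.0838. Its row overlaps PNRC2, which held 17048 counts against 1009 for SRSF10, so its reads are uncertain. The SRSF7L row ENSGALG00010017147 had a log2 fold change of −0.22 ± 0.08 (edgeR adjusted p = 0.0405) and lost the call in 10 of 20 alternatives. RefSeq names the locus of the neighbouring row SRSF7. SRSF1, SRSF5, SRSF5A and the other SRSF7L row did not pass, with log2 fold changes from −0.22 to 0.20.

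The kinases split. CLK4 (ENSGALG00010012880, chromosome 13, 13727611 to 13736602, build GRCg7b) had 33.7, 34.5 and 32.3 CPM in ETM whole brain, against 18.1, 16.6 and 18.6 CPM in CT. That is the largest positive log2 fold change of the members, 0.87 ± 0.10 (edgeR adjusted p = 0.000156). CLK1 (ENSGALG00010024803, chromosome 7, 10915663 to 10923940, build GRCg7b) had 27.7, 25.5 and 27.8 CPM in ETM, against 20.3, 20.5 and 17.8 CPM in CT (0.43 ± 0.11, edgeR adjusted p = 0.00842). The groups did not overlap for either gene. CLK2 (ENSGALG00010027966, chromosome 25, 2098151 to 2105567, build GRCg7b) was lower, at 14.0, 16.5 and 17.7 CPM in ETM, against 24.5, 24.2 and 25.3 CPM in CT (−0.66 ± 0.12, edgeR adjusted p = 0.00121). The whole CLK2 row, 7417 bases, overlaps KHDC4 on the same strand. KHDC4 held 5697 counts against 4712 for CLK2, so the reads of CLK2 are uncertain. CLK3 did not pass, with −0.17 ± 0.14 and overlapping groups.

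The other SR-type regulators included 2 called genes. TRA2A, which binds exonic enhancers and promotes exon inclusion, had 154, 159 and 155 CPM in ETM, against 92.6, 103 and 98.3 CPM in CT (0.63 ± 0.07, edgeR adjusted p = 0.000186). RSRP1, an arginine- and serine-rich protein gene (ENSGALG00010015793, chromosome 23, 2761940 to 2766888, build GRCg7b), had 85.2, 90.7 and 86.0 CPM in ETM, against 55.2, 58.9 and 56.5 CPM in CT (0.58 ± 0.08, edgeR adjusted p = 0.000274). Both were higher in all 3 ETM libraries than in any CT library. RSRP1 overlaps SYF2 over 1412 bases on the other strand. TRA2B, the paralog of TRA2A, was at −0.02 ± 0.11 and LUC7L3, of the U1 snRNP, at −0.02 ± 0.13, and neither passed.

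**Figure D2:**
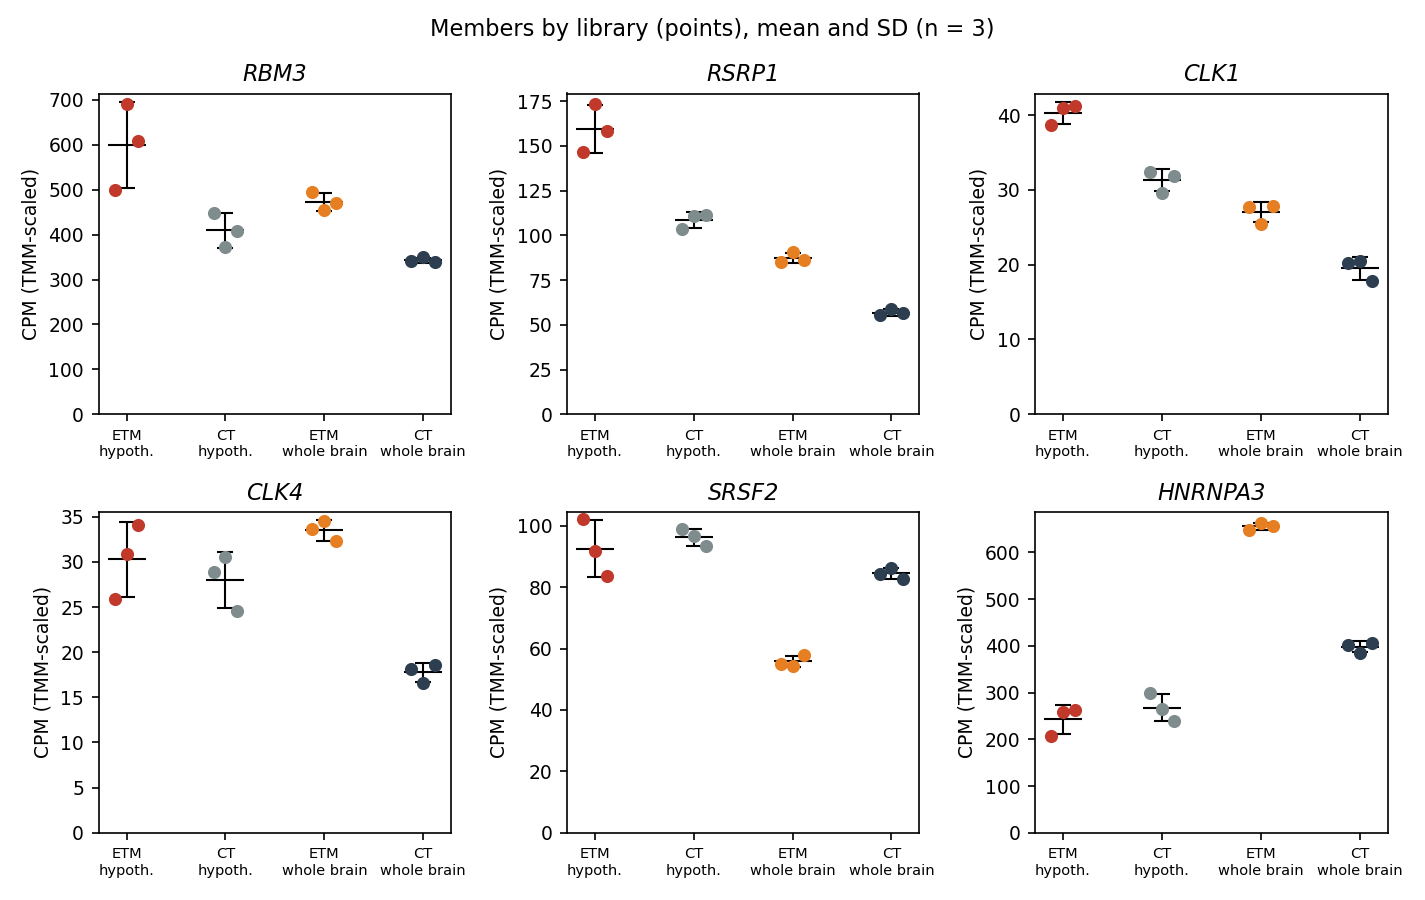
CPM (axes from 0) of 6 members in each library (points), with mean and SD of 3 libraries, for ETM and CT in each tissue. RBM3, RSRP1 and CLK1 were above CT in both tissues, while CLK4, SRSF2 and HNRNPA3 separated ETM from CT in whole brain and overlapped in the libraries labelled hypothalamus.

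In whole brain 10 hnRNP genes rose. HNRNPA3, a relative of HNRNPA1 (ENSGALG00010024144, chromosome 7, 15445467 to 15463216, build GRCg7b), had 649, 664 and 656 CPM in ETM, against 402, 384 and 406 CPM in CT (0.68 ± 0.07, edgeR adjusted p = 9.89e-05). HNRNPDL, a binder of AU-rich mRNA, had 243, 227 and 237 CPM in ETM, against 156, 153 and 148 CPM in CT (0.59 ± 0.07, edgeR adjusted p = 0.000223). HNRNPA2B1 had 444, 399 and 425 CPM in ETM, against 287, 280.1 and 278 CPM in CT (0.54 ± 0.07, edgeR adjusted p = 0.00033). The lowest ETM value of each stood above the highest CT value. HNRNPU, a nuclear scaffold protein, measured 0.48 ± 0.08 and HNRNPH3 0.45 ± 0.07 on the log2 scale. HNRNPR, which binds neuronal mRNA, HNRNPAB, HNRNPD, HNRNPM and HNRNPLL ran from 0.37 ± 0.08 for HNRNPR to 0.30 ± 0.08 for HNRNPLL. HNRNPLL and HNRNPM did not pass without CT library 3 (edgeR adjusted p = 0.0538 and 0.0518).

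The 3 that fell included the largest change of any member. HNRNPUL1 (ENSGALG00010008335, chromosome 38, 291897 to 298775, build GRCg7b), known from the DNA damage response, had 42.3, 40.5 and 45.6 CPM in ETM, against 76.8, 97.9 and 82.9 CPM in CT (−1.05 ± 0.10, edgeR adjusted p = 9.65e-05). HNRNPL, which binds CA repeats, had 138, 137 and 153 CPM in ETM, against 190.0, 224 and 215 CPM in CT (−0.60 ± 0.09, edgeR adjusted p = 0.000454). HNRNPA1, a repressor of exon inclusion, had 126, 131 and 133 CPM in ETM, against 155, 152 and 149.6 CPM in CT (−0.27 ± 0.07, edgeR adjusted p = 0.0109). No ETM value of these genes reached a CT value. RefSeq gives HNRNPA3 as a synonym of the HNRNPA1 locus on chromosome 34, so which gene that row counts is uncertain. HNRNPH1 was at 0.13 ± 0.07 and HNRNPK at 0.08 ± 0.14, and neither passed. With the offset for chromosome class described further on, HNRNPL did not pass and HNRNPA1 was higher in ETM.

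Of the RBM genes, 9 were on the higher side. RBM25, a regulator of alternative splice sites, had 70.2, 65.8 and 61.6 CPM in ETM, against 41.0, 33.7 and 36.5 CPM in CT (0.79 ± 0.10, edgeR adjusted p = 0.000238). RBM12B had 59.1, 60.9 and 50.5 CPM in ETM, against 37.3, 35.3 and 35.7 CPM in CT (0.61 ± 0.09, edgeR adjusted p = 0.000575). RBM3 (ENSGALG00010028024, chromosome 28, 3522147 to 3526338, build GRCg7b) had 494, 455 and 469.6 CPM in ETM, against 340.5, 349.7 and 338 CPM in CT (0.42 ± 0.07, edgeR adjusted p = 0.000934). RefSeq gives CIRBP, the name of another cold-inducible gene, as a synonym of this locus, so the row's symbol leaves uncertain which of these genes it counts. All these ETM values exceeded the CT values. RBM17, which recognises the 3' splice site, RBM26, RBM23, RBM12 and RBM34 also passed, with log2 fold changes from 0.31 ± 0.07 for RBM12 to 0.46 ± 0.08 for RBM26. RBM34 lost the call without ETM library 3 or without CT library 2 or 3 (edgeR adjusted p from 0.0899 to 0.105). Its row overlaps TOMM20 on the same strand, with 9234 counts against 4209 for RBM34, so its reads are uncertain. RBM11, a low-level gene with 6.47, 9.92 and 5.62 CPM in ETM, against 4.47, 2.69 and 4.62 CPM in CT, was called at 0.86 ± 0.27 and lost the call without ETM library 2 (edgeR adjusted p = 0.116) or CT library 2 (0.0949).

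On the lower side were the 2 RBM15 genes, which bring the m6A methyltransferase to RNA, and RBM14, a paraspeckle protein. RBM15B had 31.6, 30.4 and 33.7 CPM in ETM, against 44.3, 48.9 and 45.4 CPM in CT (−0.58 ± 0.09, edgeR adjusted p = 0.000671). RBM15 had 31.4, 30.7 and 29.7 CPM in ETM, against 37.8, 39.5 and 38.4 CPM in CT (−0.38 ± 0.09, edgeR adjusted p = 0.00511). RBM14 had 33.1, 35.8 and 34.0 CPM in ETM, against 44.5, 47.6 and 47.7 CPM in CT (−0.48 ± 0.08, edgeR adjusted p = 0.00118). The groups did not overlap for any of these. RBM14 did not pass with the offset for chromosome class described further on (−0.00638, edgeR adjusted p = 0.962). The remaining 17 RBM genes tested did not pass and ran from −0.37 ± 0.17 for RBM41 to 0.42 ± 0.17 for RBM20. They include RBM8A of the exon junction complex (−0.06 ± 0.11), RBM22 of the active spliceosome (−0.03 ± 0.09), RBM7 of nuclear RNA decay (−0.27 ± 0.12) and RBM10 (−0.06 ± 0.08).

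**Figure D3:**
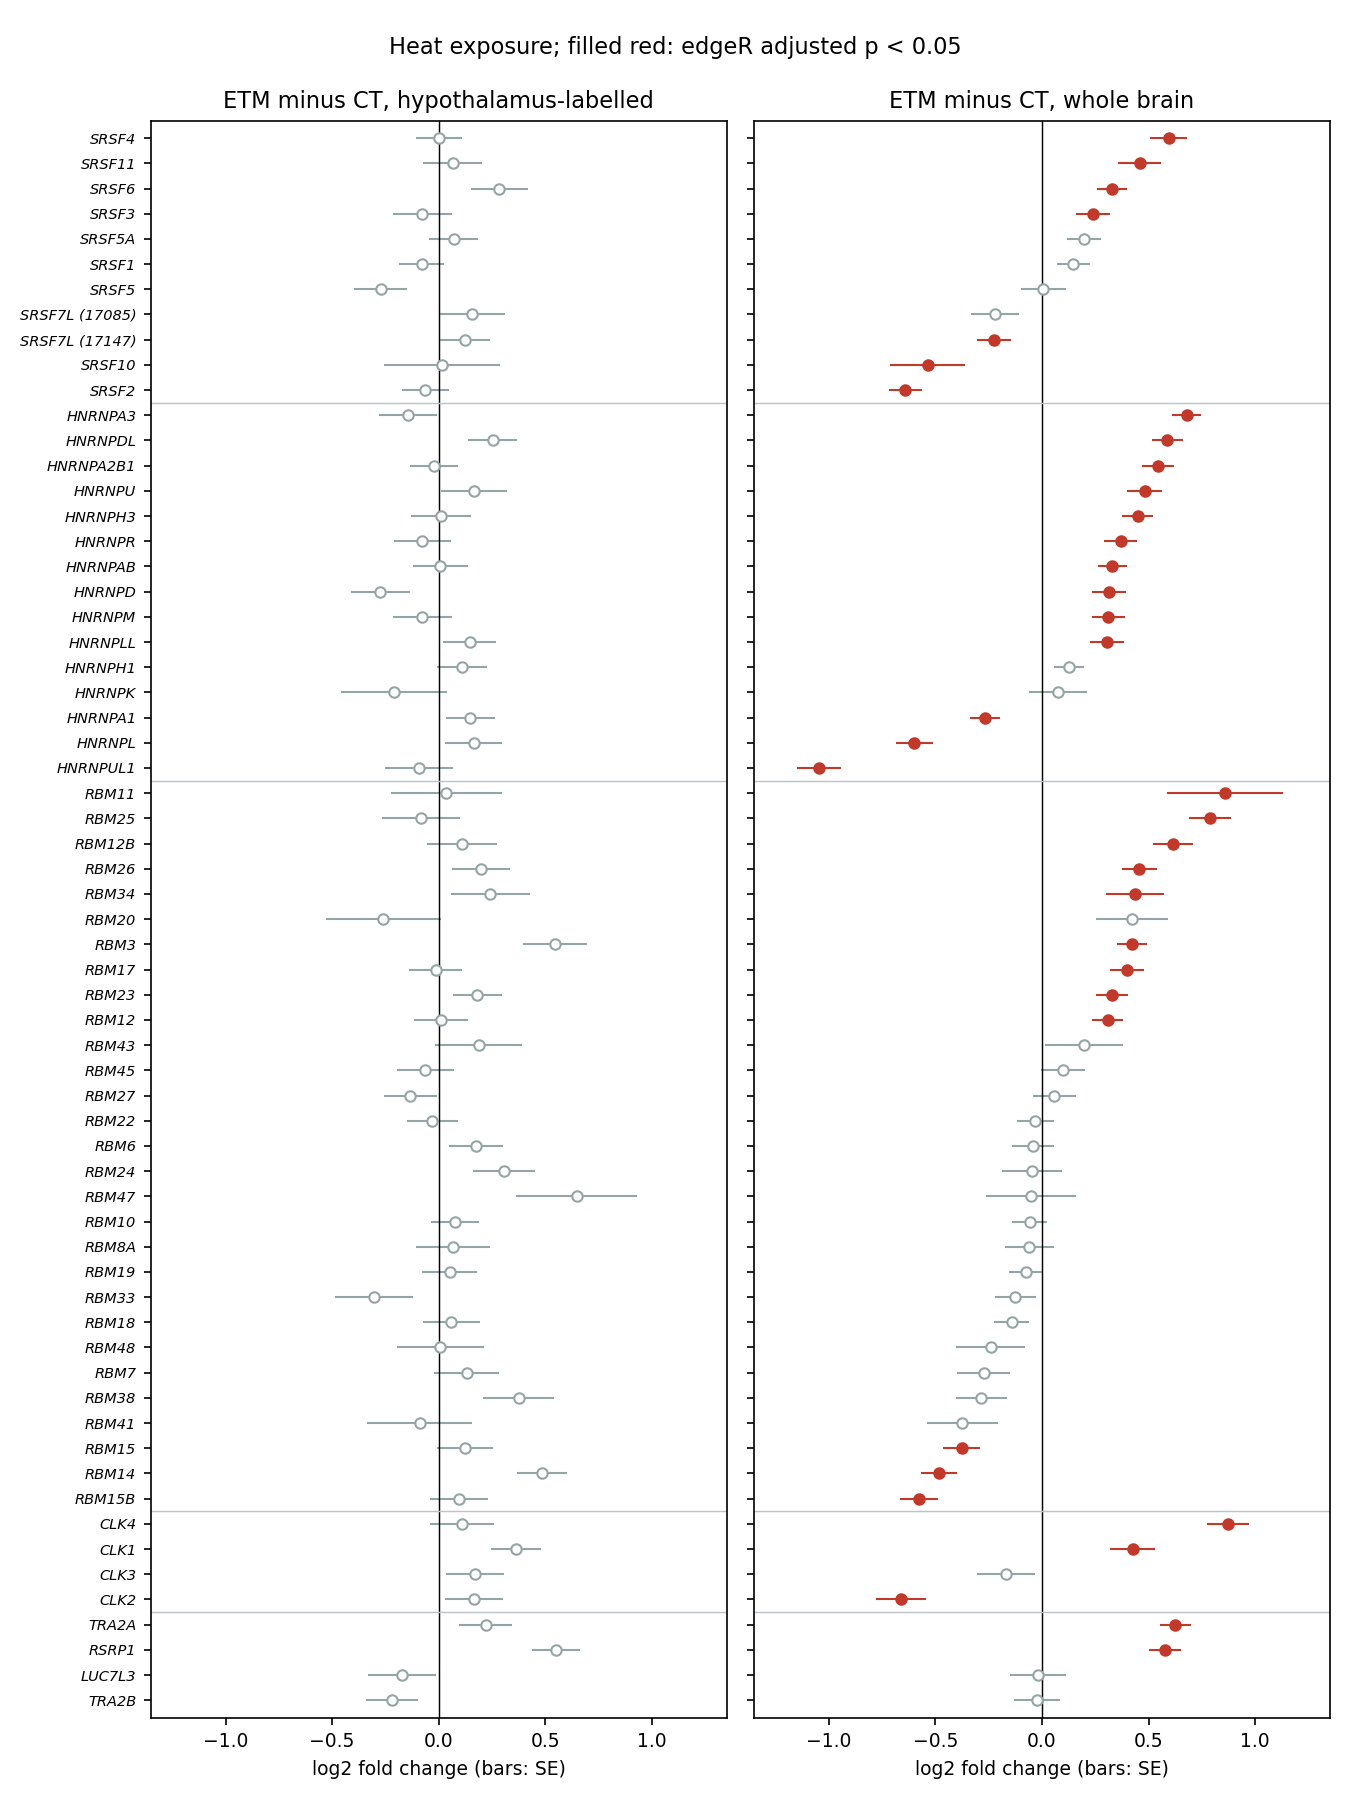
Log2 fold change of ETM over CT (points, bars: SE) for the members tested, by family, in libraries labelled hypothalamus (left) and in whole brain (right). Filled red points passed the edgeR test, 0 of 63 on the left and 37 of 63 on the right.

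Of the 37 members called, 24 were called in every one of 20 alternatives and 30 without each library in turn, counted whatever the direction. The direction in whole brain also varied with chromosome. On chromosomes 1 to 10, 16 members rose and 1 fell of 30 (53.3% and 3.33%), where 27.6% of all genes there rose and 14.6% fell. On the microchromosomes 11 to 39, 11 members rose and 9 fell of 32 (34.4% and 28.1%), where 11.6% of all genes rose and 38.4% fell. The median log2 fold change was 0.35 for members and 0.14 for all genes on the larger chromosomes, and −0.04 for members and −0.25 for all genes on the smaller ones. When each library was given an offset for gene length and chromosome class, 29 members rose and 8 fell. Of all 15305 genes, 3042 rose and 3212 fell under it. Of the 37 members called before, 32 were called again, HNRNPA1 among them in the other direction. Under that offset HNRNPA1 turned to 0.34 (edgeR adjusted p = 0.00926), HNRNPL was at 0.025 (edgeR adjusted p = 0.811) and RBM14 no longer passed. SRSF2 and HNRNPUL1 kept the lower direction under it, and both still passed.

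**Figure D4:**
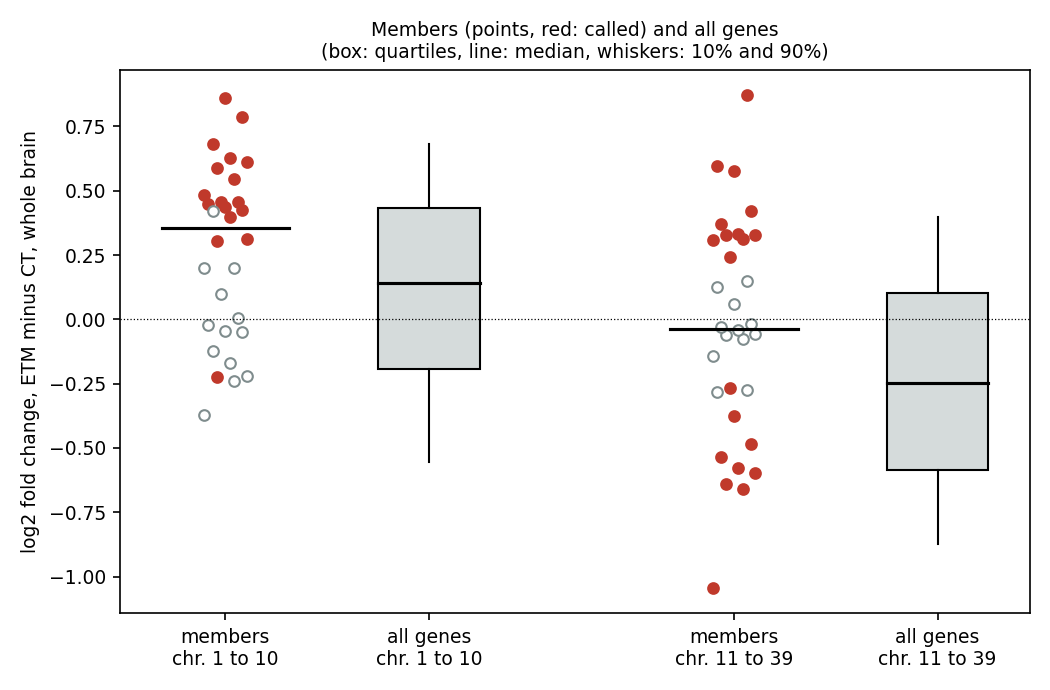
Log2 fold change of ETM over CT in whole brain for members (points, red where called, line at the median) and for all genes (box of quartiles, line at the median, whiskers at 10% and 90%), by chromosome class. Medians were 0.35 for members and 0.14 for all genes on chromosomes 1 to 10, and −0.04 for members and −0.25 for all genes on chromosomes 11 to 39.

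Other measures moved with heat in whole brain beside these results, where 21.1% of all genes were called higher and 23.2% lower. The summed CPM of 8 neuron markers was 5459 to 6270 in ETM, against 4205 to 4627 in CT, with 5 markers higher and 2 lower. Markers of fibroblasts and meninges summed to 529 to 629 CPM in ETM, against 1373 to 1561 CPM in CT, and 3 of 5 fell with 1 higher. Red blood cell markers summed to 192 to 470.0 CPM in ETM, against 488 to 752 CPM in CT, with 3 of 5 lower. Microglia markers summed to 32.3 to 36.0 CPM in ETM, against 50.01 to 51.4 CPM in CT, with 3 of 4 lower. Choroid plexus markers summed to 1228 to 1797 CPM in ETM, against 775 to 1200 CPM in CT, with 2 of 6 higher. Most of this sum was TTR, at 1686, 1344 and 1117 CPM in ETM, against 1020, 686 and 1102 CPM in CT. The log2 fold changes of the list were positive for 3 genes and negative for 3. Markers of proliferating cells summed to 134 to 165 CPM in ETM, against 169.7 to 177 CPM in CT, with 1 of 4 lower. The 6 hypothalamus markers summed to 42.3 to 43.0 CPM in ETM, against 79.0 to 82.4 CPM in CT, with 2 lower and 0 higher. Most of that sum was AVP, at 29.9, 30.4 and 28.2 CPM in ETM, against 62.2, 65.1 and 63.2 CPM in CT. The 5 pallium markers summed to 492 to 502 CPM in ETM, against 367 to 466 CPM in CT, with 2 higher and 1 lower. The mitochondrial share of counts was 7.09% to 8.62% in ETM and 6.17% to 6.29% in CT. In bulk tissue, fewer cells of a type and less RNA per cell cannot be told apart, and the part of these shifts in the members' changes was not tested.

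In the libraries labelled hypothalamus, 0 of 63 members passed the edgeR test of heat, where 0.0454% of all 15405 genes did (7 genes). At an unadjusted p below 0.05 there were 5 members, all higher, RSRP1, RBM14, RBM3, CLK1 and RBM47, where 10.3% of all genes had such a p and 5.71% were on the higher side. DESeq2 called 3 of them, RBM3, RSRP1 and RBM14, where it called 195 of all 15405 genes. The edgeR fit of all 12 libraries called RSRP1 and RBM14, where 83 of all 16201 genes were called. The median log2 fold change was 0.07 over the members and 0.01 over all genes. In simulated counts, where few genes drawn from all those tested were changed, this test recovered 9.09% of 1.5-fold changes, against 57.8% in whole brain. Neither is the rate for the members, and in whole brain 44.3% of all genes were called, unlike in the simulation. A count of 0 in hypothalamus does not show that no member changed. The spread was larger than in whole brain. The median coefficient of variation of the members was 9.94% in ETM and 8.96% in CT hypothalamus, against 5.64% in ETM and 5.20% in CT whole brain. Over all genes it was 16.57% in ETM and 12.57% in CT hypothalamus, against 10.20% in ETM and 10.99% in CT whole brain. The members thus had the smaller median spread in each group. The part of this in their called shares was not tested in any comparison.

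RSRP1 had 147, 173 and 158 CPM in ETM libraries labelled hypothalamus, against 104, 111 and 111 CPM in CT. RBM3 had 499, 691 and 609 CPM in ETM, against 449, 372 and 408 CPM in CT. CLK1 had 38.6, 41.0 and 41.2 CPM in ETM, against 32.4, 29.6 and 31.8 CPM in CT. For these 3 genes every ETM library was above every CT library, as it was in whole brain. The same held for SRSF6 and HNRNPDL in both tissue labels. The log2 fold changes were 0.55 ± 0.11 for RSRP1 (edgeR adjusted p = 0.179), 0.55 ± 0.15 for RBM3 (edgeR adjusted p = 0.26) and 0.36 ± 0.12 for CLK1 (edgeR adjusted p = 0.341). RBM14 had 67.0, 67.4 and 61.3 CPM in ETM, against 50.2, 42.3 and 47.0 CPM in CT, a log2 fold change of 0.48 ± 0.12 (edgeR adjusted p = 0.217). RBM47, a cofactor of C-to-U editing, had 3.99, 5.98 and 7.41 CPM in ETM, against 3.27, 3.70 and 4.13 CPM in CT (0.65 ± 0.28, edgeR adjusted p = 0.473), and its groups overlapped.

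Other members called in whole brain did not pass here. HNRNPUL1, the largest change there, had 82.0, 59.6 and 52.1 CPM in ETM, against 67.5, 66.9 and 70.9 CPM in CT (−0.09 ± 0.16, edgeR adjusted p = 0.893). CLK4 had 25.9, 30.9 and 34.1 CPM in ETM, against 28.9, 30.6 and 24.6 CPM in CT (0.11 ± 0.15, edgeR adjusted p = 0.861). SRSF2 had 102, 91.8 and 83.8 CPM in ETM, against 99.0, 96.6 and 93.3 CPM in CT (−0.06 ± 0.11, edgeR adjusted p = 0.893). HNRNPA3 had 207, 259 and 262 CPM in ETM, against 298, 265 and 240.0 CPM in CT (−0.14 ± 0.14, edgeR adjusted p = 0.77). All 4 pairs of groups overlapped. Over the hnRNP genes the median was 0.01, over SRSF rows 0.02, over RBM genes 0.08 and over CLK genes 0.17 on the log2 scale. Groups without overlap numbered 8 on the higher and 1 on the lower side, where 16.1% of all genes had no overlap (8.39% higher and 7.75% lower). With the reads recovered for ETM library 1, 0 members and 0 of all 15496 genes passed. Without the 2 libraries with W counts, 0 members and 0 of all 15441 genes passed. Among marker lists, endothelium summed to 253 to 304 CPM in ETM, against 315 to 360.5 CPM in CT. Choroid plexus summed to 53.1 to 64.1 CPM in ETM, against 38.9 to 43.9 CPM in CT. Neither sum overlapped, and 0 genes of either list were called. Of 6 endothelium genes 4 had a negative and 2 a positive log2 fold change. Most of the choroid plexus sum was AQP1 and OTX2, while its marker TTR stayed at 0.218 to 0.747 CPM. Red blood cell markers summed to 191 to 313 CPM in ETM, against 279 to 536 CPM in CT, with 4 of 5 lower at an unadjusted p below 0.05 and 0 called. Of all 15405 genes, 714 were lower at such a p. The part of these marker lists in the members' values was not tested.

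Whether heat acted differently in the 2 tissue labels was tested in 1 fit of all 12 libraries, as the ETM over CT change in hypothalamus minus that in whole brain. This interaction was called for 20 of 64 members (31.2%), 9 with a positive and 11 with a negative difference, where 24.2% of all 16201 genes were called. The hnRNP family held 9 of these 20 calls, 3 positive and 6 negative. RBM14 differed most, by 0.93 ± 0.13 (edgeR adjusted p = 0.00147). Its log2 fold change was 0.48 ± 0.12 in hypothalamus, where it did not pass, and −0.48 ± 0.08 in whole brain, where it fell, a call that the offset for chromosome class ended. Its row overlaps an unnamed gene on the other strand with 16202 counts against 8767.

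HNRNPUL1 differed by 0.92 ± 0.21, with −0.09 ± 0.16 in hypothalamus and −1.05 ± 0.10 in whole brain (edgeR adjusted p of the difference 0.0084). CLK2, with reads uncertain through its overlap with KHDC4, differed by 0.79 ± 0.17 (edgeR adjusted p 0.00715). It was at 0.17 ± 0.14 in hypothalamus and −0.66 ± 0.12 in whole brain. SRSF2 differed by 0.54 ± 0.12 (edgeR adjusted p 0.00872). These 3 fell in whole brain and did not pass in hypothalamus. On the negative side CLK4 differed by −0.80 ± 0.17 (edgeR adjusted p 0.00662), HNRNPA3 by −0.86 ± 0.15, SRSF4 by −0.63 ± 0.13 and HNRNPA2B1 by −0.60 ± 0.12. Those 4 rose in whole brain and did not pass in hypothalamus, where 0.0454% of all genes passed. RSRP1, RBM3 and CLK1 had differences of −0.06 ± 0.12, 0.09 ± 0.16 and −0.10 ± 0.13, none of which passed, and a p above the threshold does not show that the responses were equal.

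The number of interaction calls moved with single libraries. Of the 20 calls, 12 held without each library in turn and 7 in every one of 26 alternatives, HNRNPA3, HNRNPA2B1, HNRNPD, SRSF4, RBM14, RBM15B and CLK4. The number called was 13 without CT hypothalamus library 1 or ETM whole brain library 1, and 12 without ETM whole brain library 2 or CT whole brain library 2 or 3. In the same order, 3116, 2917, 2492, 2340 and 3006 of all genes were called in these fits, against 3917 in the main fit. With reads recovered for ETM hypothalamus library 1 it was 13, where 2626 of all 16231 genes were called. With the offset for length and chromosome 17 members were called, 5 positive and 12 negative, where 3123 of all 16201 genes were called. Of the 20 calls, 12 were made again. Under that offset HNRNPL turned from positive to −0.022 (edgeR adjusted p = 0.924) and HNRNPA1 to −0.34 (edgeR adjusted p = 0.125). In the main fit, members called with a positive difference lay on chromosomes 12 to 39, and those with a negative difference on chromosomes 1 to 23. The part of chromosome class in these differences was not tested beyond this offset.

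Between tissue labels, hnRNP genes were lower in hypothalamus-labelled libraries. In CT embryos 26 of 64 members differed (40.6%), 8 higher and 18 lower in hypothalamus, and 34.3% of all genes were called, 16.7% higher and 17.6% lower. Of the 16 HNRNP rows 11 were lower and 0 higher, while 3 of the 4 CLK genes were higher. HNRNPAB had 175, 139.8 and 139 CPM in CT hypothalamus, against 236, 251 and 246 CPM in CT whole brain (−0.69 ± 0.10, edgeR adjusted p = 0.000161). HNRNPA1 had 108, 96.1 and 91.8 CPM in CT hypothalamus, against 155, 152 and 149.6 CPM in CT whole brain (−0.62 ± 0.09, edgeR adjusted p = 0.000132). Neither gene overlapped between the tissue labels. RBM38, which stabilises mRNA, had the largest called difference of this contrast, −1.32 ± 0.14, with 13.6, 14.9 and 11.4 CPM in CT hypothalamus, against 29.8, 38.6 and 31.6 CPM in CT whole brain (edgeR adjusted p = 1.45e-05).

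Higher in CT hypothalamus were RSRP1 by 0.93 ± 0.08, RBM24, known as a muscle splicing factor, by 0.80 ± 0.13, SRSF5 by 0.70 ± 0.12, CLK1 by 0.68 ± 0.10 and CLK4 by 0.66 ± 0.12 (edgeR adjusted p from 3.23e-06 for RSRP1 to 0.00101 for CLK4). RBM10 was higher by 0.47 ± 0.09, CLK3 by 0.41 ± 0.13 and LUC7L3 by 0.46 ± 0.14. CLK3 overlaps EDC3 (13663 counts against 3787) and LUC7L3 overlaps TOB1 (20056 against 3713), both on the other strand. The reads of CLK3 and LUC7L3 are therefore uncertain. The oligodendrocyte markers, at 10739 to 21818 CPM in CT hypothalamus, against 3417 to 5510 CPM in CT whole brain, and the pallium markers, at 5.31 to 7.62 CPM against 367 to 466 CPM, also separated these libraries. Their part in the members' differences was not tested.

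In ETM embryos 41 of 64 members differed (64.1%), 14 higher and 27 lower in hypothalamus, where 58.9% of all genes did (29.3% higher and 29.6% lower). Of HNRNP rows 13 were lower and 1 higher. HNRNPA3 had 207, 259 and 262 CPM in ETM hypothalamus, against 649, 664 and 656 CPM in ETM whole brain (−1.43 ± 0.11, edgeR adjusted p = 2.33e-07). HNRNPD, which marks AU-rich mRNA for decay, had 31.9, 41.2 and 35.4 CPM in ETM hypothalamus, against 89.9, 84.3 and 82.1 CPM in ETM whole brain (−1.24 ± 0.11, edgeR adjusted p = 7.52e-07). SRSF4 differed by −0.87 ± 0.09 and SRSF2 by 0.73 ± 0.09 (edgeR adjusted p = 1.17e-05). SRSF2 had not passed in CT embryos, at 0.19 ± 0.09 (edgeR adjusted p = 0.108). CLK4 showed the reverse, −0.14 ± 0.12 in ETM without passing and 0.66 ± 0.12 in CT. The test of the change in tissue difference is the interaction above.

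Averaged over both tissue labels, heat was called for 21 of 64 members (32.8%), 19 higher and 2 lower, where 15.9% of all genes were called (8.73% higher and 7.14% lower). The 2 lower were SRSF2 (−0.33 ± 0.06) and HNRNPUL1 (−0.55 ± 0.10). RSRP1 was higher by 0.59 ± 0.06, CLK4 by 0.51 ± 0.09, RBM3 by 0.51 ± 0.08, TRA2A by 0.45 ± 0.07, HNRNPDL by 0.44 ± 0.06 and CLK1 by 0.42 ± 0.07 (edgeR adjusted p from 0.00201 for RSRP1 to 0.00604 for CLK4). The interaction was called for SRSF2, HNRNPUL1, CLK4, TRA2A and HNRNPDL, so their averages join unlike responses. In hypothalamus-labelled libraries SRSF2 was at −0.06 ± 0.11, HNRNPUL1 at −0.09 ± 0.16 and CLK4 at 0.11 ± 0.15. TRA2A was at 0.22 ± 0.12 and HNRNPDL at 0.25 ± 0.11 there, and none of the named genes passed in those libraries. HNRNPDL had 157, 173 and 176 CPM in ETM hypothalamus, against 156, 134 and 134 CPM in CT hypothalamus, where the groups did not overlap. TRA2A had 100.1, 103 and 119 CPM in ETM hypothalamus, against 103, 88.2 and 84.7 CPM in CT hypothalamus, with 1 ETM value below the highest CT value. The calls of RBM3, HNRNPDL, RSRP1, TRA2A and CLK1 held in all 26 alternatives. The number called was 5 with reads recovered for ETM hypothalamus library 1, 13 without ETM hypothalamus library 3, CT hypothalamus library 3 or CT whole brain library 3, and 12 without CT whole brain library 2. With the recovered reads 167 of all 16231 genes were called. In the fits without 1 library, in the order given, 1206, 1214, 1514 and 1116 of all genes were called, against 2571 in the main fit.

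HNRNPK, a binder of C-rich RNA on chromosome Z (40683356 to 40702529, build GRCg7b), has a related copy, HNRNPKL, which the files place on an unplaced scaffold and RefSeq (build GRCg7b) on chromosome W. HNRNPKL had 53.0 CPM in ETM hypothalamus library 2, 45.8 CPM in CT hypothalamus library 3 and 89.5 CPM in ETM whole brain library 1, the 3 libraries with W counts, and at most 0.132 CPM elsewhere. HNRNPK was lowest of its group in those same libraries, with 156, 102 and 168 CPM in ETM and 199, 187 and 105 CPM in CT hypothalamus, and 205, 321 and 298 CPM in ETM and 264, 240.3 and 253 CPM in CT whole brain. The sum of both genes was 294, 321 and 298 CPM in ETM whole brain, against 264, 240.3 and 253 CPM in CT whole brain, so the sums did not overlap. In hypothalamus it was 156, 155 and 168 CPM in ETM, against 199, 187 and 151 CPM in CT. How the counting split reads between the copies is not given in the sources used here. HNRNPK alone did not pass in whole brain over all libraries, and passed at 0.25 without ETM library 1 (edgeR adjusted p = 0.0477).

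**Figure D5:**
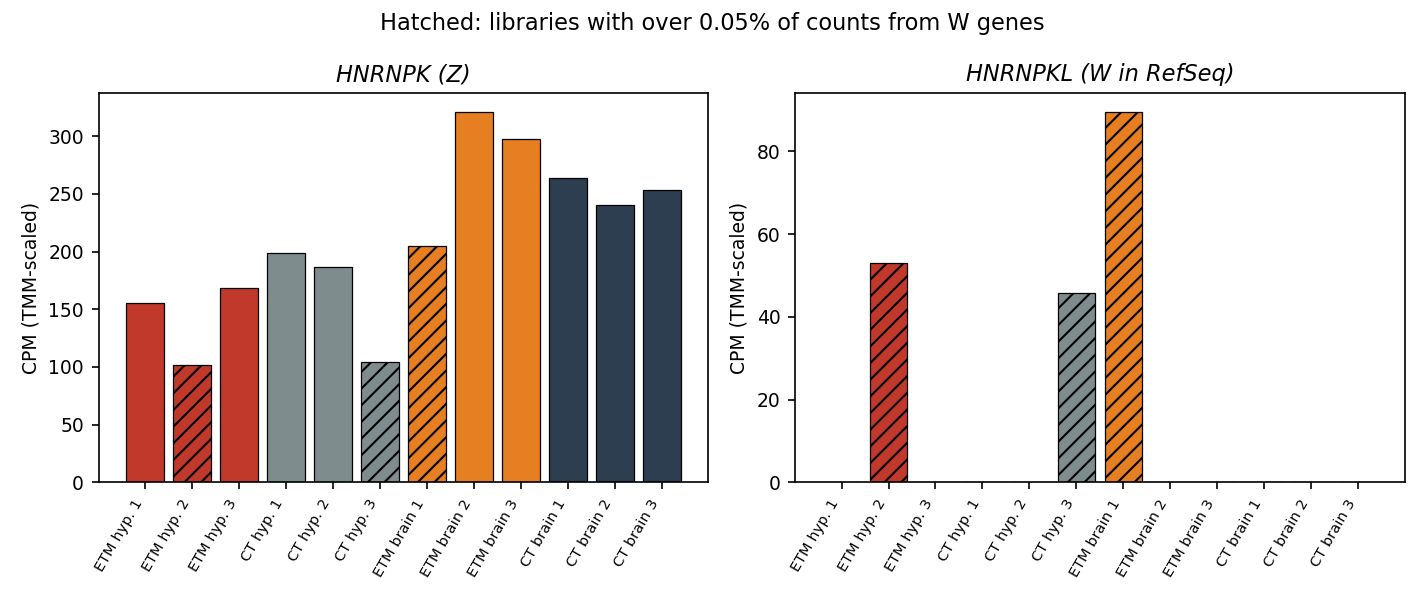
CPM per library (bars from 0) of HNRNPK and of its copy HNRNPKL, with hatching for the 3 libraries that took over 0.05% of their counts from W genes. HNRNPKL reached 45.8 to 89.5 CPM in the hatched libraries and at most 0.132 CPM in the others, and HNRNPK was lowest of its group in each hatched library.

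Other genes of splicing were counted from lists chosen with earlier results of these data known, beside the background of 21.1% higher and 23.2% lower in whole brain. Of 25 SR-related and nuclear speckle genes tested, 14 rose and 1 fell, with a median log2 fold change of 0.33. PPIG, a cyclophilin with an SR tail, rose by 1.12 ± 0.12 and ARGLU1, a splicing coactivator, by 0.82 ± 0.07 (edgeR adjusted p = 0.00011 and 7.2e-05). TRA2A is a member of that list as well. Of 15 genes for SR kinases, phosphatases and transport 8 rose and 3 fell. TNPO3, the importin of SR proteins, fell by 0.93 ± 0.08 and the phosphatase subunit PPP1CA fell by 0.81 ± 0.08, while the kinase PRPF4B rose by 0.67 ± 0.09.

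Of 23 neuronal splicing regulators 11 rose and 4 fell. ELAVL4, a neuronal stabiliser of mRNA, rose by 0.90 ± 0.08 and CELF2 by 0.59 ± 0.08, while RBFOX2, which binds GCAUG, fell by 0.99 ± 0.11. Core spliceosome lists moved both ways, with 3 higher and 2 lower of 11 snRNP and Sm genes, 4 and 4 of 13 genes for 3' splice site recognition, and 9 and 5 of 20 PRPF and catalytic genes. SNRNP200, the U5 helicase, fell by 0.97 ± 0.10 (edgeR adjusted p = 9.65e-05) and PRPF8 by 0.54 ± 0.08, whereas CWC22 rose by 0.70 ± 0.09. Of 12 genes for nonsense-mediated decay and the exon junction, 3 rose and 5 fell, among them SMG5 (−0.92 ± 0.09) and UPF3B (0.58 ± 0.08). Of 18 FET, cold and stress granule genes 7 rose, such as MATR3 (0.52 ± 0.08), and 4 fell, such as ILF2 (−0.48 ± 0.08). In hypothalamus-labelled libraries 0 genes of these lists passed. In the interaction, 11 of the 25 speckle genes and 10 of the 23 neuronal regulators were called with a negative difference, and 0 and 1 with a positive difference, where 12.3% of all genes were called negative and 11.9% positive.

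Heat shock genes were counted in the same libraries. In whole brain 12 of 26 rose and 4 fell, where 21.1% of all genes rose and 23.2% fell. HSP90B1 rose by 0.73 ± 0.07 and HSPH1 by 0.68 ± 0.09. In hypothalamus-labelled libraries 2 rose, HSPA2 by 1.25 ± 0.13 (edgeR adjusted p = 0.0311) and HSPB9 by 1.25 ± 0.15, and HSP90AB1 fell by 1.46 ± 0.19, where 0.0454% of all genes were called. Averaged over both tissue labels 15 of the 26 rose and 1 fell, where 8.73% of all genes were higher and 7.14% lower.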

How the data were processed

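Counts per gene were deposited by the authors as a raw table, made with featureCounts of Subread 2.0.6 on build GRCg7b per the submitters' processing notes; the aligner and strand setting were not stated in the sources used here. The authors also deposited FPKM values and gene lengths for the same genes. In 11 of 12 libraries FPKM equalled count per length within 0.1%; in ETM hypothalamus library 1 only 0.28% of values did, and whole reads recovered from that column (100% whole within 0.01 reads, 12161593 in sum, against 13326994 counts) gave an alternative. FPKM columns headed HT were read as ETM.

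The test was that of edgeR 4.0.16 (R 4.3.3; TMM, filterByExpr, quasi-likelihood test, Benjamini-Hochberg over all genes tested, threshold 0.05). Heat was tested within each tissue label on 6 libraries, and the interaction, tissue and average contrasts in 1 fit of 12 libraries. These contrasts share libraries. The SE is the unshrunk log2 fold change divided by the root of the F value and is approximate. Rows without a gene name (634, with 0.513% of counts) stayed in the tests. Alternatives used DESeq2 1.42.0, limma 3.58.1 on log2(FPKM + 1) and log2(FPKM + 0.1), other scalings, filters and offsets, W and replicate terms, and each library left out. The offset for chromosome class and the fit without W libraries were added after the data were seen. Tests were checked on simulated counts in which few genes changed. Of 1.5-fold changes the heat test recovered 9.09% in hypothalamus and 57.8% in whole brain, and the interaction test 3.03%. Of 2-fold changes they recovered 56.2%, 75.4% and 34.3%. The changed genes were drawn from all genes tested, so these are not rates for the members. Replicate libraries differed beyond counting noise (chi-square per degree of freedom from 5.80 to 37.4), so none was merged.

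Members and lists were chosen with earlier results of these data known. Named members are RBM3, CLK1, CLK4, SRSF2 and RSRP1, the 10 largest called changes each way, the lowest p where few were called, Z and W genes and the most abundant of each family. Other members named were chosen after their values were seen. RefSeq symbols matched 63 of 64 member symbols. RBM46 was too low to test, and HNRNPKL was tested only over 12 libraries. Of the members, 26 overlap another row, 16 of them a row with at least 0.1 of their counts, and shared reads are then uncertain. Libraries of 13309467 to 18317019 counts limit the precision of low genes.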

Additional observations from a re-analysis of the deposited data

Results flagged for a closer look

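The difference in heat response between the tissue labels passed the edgeR test for 20 of 64 members (31.2%), where 24.2% of all genes passed. Values are the log2 change of ETM over CT in hypothalamus-labelled libraries minus that in whole brain, with SE.

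A positive difference was found for RBM14 (0.93 ± 0.13, edgeR adjusted p = 0.00147), HNRNPUL1 (0.92 ± 0.21), CLK2 (0.79 ± 0.17), HNRNPL (0.73 ± 0.16) and RBM15B (0.63 ± 0.15). Smaller positive differences were those of RBM38 (0.62 ± 0.20), SRSF2 (0.54 ± 0.12), RBM15 (0.46 ± 0.14) and HNRNPA1 (0.38 ± 0.12, edgeR adjusted p = 0.0428). In the within-tissue fits SRSF2, HNRNPUL1, CLK2, HNRNPL, RBM15, RBM15B, RBM14 and HNRNPA1 fell in whole brain, and 0 of them passed in hypothalamus. Of all 15405 genes 7 passed there, so not passing there does not show that a member did not respond. With the offset for length and chromosome, RBM14 and HNRNPL did not pass in whole brain and HNRNPA1 was higher. The reads of CLK2 are uncertain through its overlap with KHDC4. RBM38 passed in neither tissue, with 0.37 ± 0.17 in hypothalamus and −0.28 ± 0.12 in whole brain.

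A negative difference was found for RBM25 (−0.91 ± 0.21), HNRNPA3 (−0.86 ± 0.15, edgeR adjusted p = 0.00286), CLK4 (−0.80 ± 0.17), SRSF4 (−0.63 ± 0.13), HNRNPD (−0.62 ± 0.15) and HNRNPA2B1 (−0.60 ± 0.12). The remaining negative differences were HNRNPR (−0.48 ± 0.15), HNRNPH3 (−0.48 ± 0.16, edgeR adjusted p = 0.0441), RBM17 (−0.45 ± 0.13), TRA2A (−0.44 ± 0.14) and HNRNPDL (−0.37 ± 0.12). All 11 rose in whole brain, and 0 of them passed in hypothalamus, where 7 of all 15405 genes did. The calls of HNRNPA1, HNRNPDL and HNRNPH3 each held in 9 of 26 alternatives, that of TRA2A in 11, HNRNPR in 12 and RBM38 in 13.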

How the results depend on the processing

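For heat in whole brain and both tissue contrasts, the number of members called stayed within 1.5 times the main value in every alternative run. With 1 library left out it was 0 for heat in hypothalamus, 32 to 37 in whole brain, 12 to 22 for the interaction, 22 to 33 for tissue in CT, 36 to 42 for tissue in ETM and 12 to 29 for heat averaged over both labels. In the same order, 0 to 39, 5473 to 6610, 2340 to 4195, 4200 to 6298, 8503 to 9662 and 1102 to 4756 of all genes were called. Those fits tested 15567 to 16607 genes. In hypothalamus DESeq2 called 3 members and 1 fit of 12 libraries called 2, where 195 and 83 of all genes were called. The interaction gave 13 members with recovered reads, 10 with limma at FPKM + 1 and 9 at FPKM + 0.1. These are of 64 members tested, and of all genes 2626 of 16231, 2408 of 16201 and 2277 of 16201 were called. Heat over both labels gave 5 members with recovered reads, 5 with limma at FPKM + 1 and 5 at FPKM + 0.1. Of all genes, 167, 315 and 260 were called there. The cause of these shifts was not tested. Correlations of deviations from group means ran from −0.355 to 0.171 between libraries of the same replicate number. Between libraries of unlike numbers they ran from −0.345 to 0.452. With 3 libraries per group, such values cannot settle if replicate numbers pair the libraries. With the replicate block, 12 members were called in the interaction, 0 for heat in hypothalamus and 34 in whole brain. For tissue in CT it called 25 members, for tissue in ETM 39 and for heat over both labels 16. In the same order, 2974, 2, 6190, 4938, 9145 and 1637 of all genes were called with the block. The following log2 fold changes turned their direction among the members named by rule in each comparison. Other members near 0 in hypothalamus also changed sign, SRSF4 in 13 of 22 alternatives, HNRNPUL1 in 4, and HNRNPL and HNRNPA1 in 1 each. In hypothalamus, SRSF2 was at 0.11 with recovered reads, 0.081 and 0.082 with limma at FPKM + 1 and FPKM + 0.1, and −0.13 to 0.00233 with 1 library left out. CLK4 was at −0.041, −0.093 and −0.10 under the first 3 of these, and HNRNPA2B1 at −0.065 to 0.055 with 1 library left out. In whole brain, the offset for length and chromosome gave HNRNPL 0.025, HNRNPA1 0.34, HNRNPK −0.072 and RBM10 0.097, and HNRNPK ran from −0.041 to 0.25 with 1 library left out. In the interaction, that offset gave RBM3 −0.00624, HNRNPL −0.022, HNRNPA1 −0.34 and RBM10 −0.048. There RBM3 ran from −0.030 to 0.23 and RSRP1 from −0.13 to 0.016 with 1 library left out. RSRP1 was at 0.00893 and 0.00262 with limma, and CLK1 at 0.038 with recovered reads and 0.050 and 0.039 with limma. Over both labels, HNRNPK was at 0.074 with the W covariate and −0.18 to 0.053 with 1 library left out, and RBM10 at −0.00104 to 0.056. Depth limits SRSF10, RBM11 and RBM47, which stayed under 10 CPM in every library.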
